A study of Mus musculus with 22 samples.

Results

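A set of 8 germ cell genes, of the 19752 genes tested, was followed in thymic medullary epithelial cells (MECs) of mice. They were chosen by symbol: Ddx4 and Dazl, Sycp1 and Sycp3, Prm1 and Prm2, Tnp1 and Tnp2. Each had exactly 1 probe that the platform annotation assigns to that gene alone. The rule names symbols alone, and the set was proposed with earlier results of these data known.

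MECs express genes that are otherwise restricted to other organs, and the transcriptional regulator Aire drives many of them, which exposes developing T cells to self antigens. Germ cell proteins belong to these restricted antigens. Ddx4 (Vasa) is an RNA helicase of germ cells and Dazl an RNA-binding protein that controls translation there. Sycp1 and Sycp3 build the synaptonemal complex that pairs chromosomes in meiosis. In spermatids the transition proteins Tnp1 and Tnp2 take the place of histones and are then replaced by the protamines Prm1 and Prm2, which compact the sperm genome.

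The 22 arrays came from C57Bl/6 mice, either Aire+/+ (WT) or Aire-/- (knockout, KO), given DMSO, Etopo, Topo or both agents (EtopoTopo), and held MECs sorted as CD45-negative, Ly51-low and MHC class II-high. Each of the 8 groups had 3 arrays, except KO Etopo and KO EtopoTopo with 2. Etopo and Topo are read here as etoposide and topotecan, which block DNA topoisomerases, although the labels give only the short forms and no dose. Mice were 6 weeks old by label, except 4 weeks for WT DMSO 3, WT Etopo 3 and the EtopoTopo groups. WT EtopoTopo 1 and 2 name both agents in the title and Etopo alone as treatment. The sex label is male for WT DMSO 1, WT Etopo 2 and WT Topo 2 and female for the rest. The labels do not say whether mice were pooled for an array. The p-values therefore reflect array-to-array spread, part of which may be technical. In sorted bulk cells, fewer expressing cells and less RNA per cell cannot be told apart.

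All values below are log2 intensities of RMA-processed arrays, and changes are differences of group means with the standard error (SE) of a limma fit to all arrays. A change was called at an adjusted p (Benjamini-Hochberg over all genes) under 0.05. Array medians lay between 7.88 and 8.04. Intensities of different probes cannot be ranked against each other, and 5 of the 8 genes (Ddx4, Dazl, Sycp1, Sycp3 and Tnp1) were among the dimmest 25% of genes by mean. The deposited table gives no detection call. Among 14 MEC markers, Epcam read 10.37 to 10.92 over the arrays and H2-Aa, a gene of the class II used for sorting, 12.68 to 13.64. The lowest readings in this list were 7.89 for Cd86, within the range of the array medians, and 8.22 for Ccl22. Aire itself read 12.31 in WT DMSO and 12.91 in KO DMSO (0.60 ± 0.25 SE, limma adjusted p = 0.101). Its probe averages positions along the transcript, which does not check the deleted part. The mean of 16 measured thymocyte markers (of 18) stood high on WT DMSO 1 and KO DMSO 1, where the group ranges were 7.34 to 8.14 and 7.19 to 8.50, against 6.93 to 7.46 over the other groups.

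The 250 bases upstream of the start are shown for Ddx4, Prm1, Prm2 and Tnp2, since the results turn on Ddx4, Prm1 and Tnp2 and Prm2 lies between the last 2 on the chromosome. The sequences are from RefSeq (GRCm38.p6), on the gene's strand, at chr13:112652311-112652560 (Ddx4), chr16:10796824-10797073 (Prm1), chr16:10792106-10792355 (Prm2) and chr16:10788656-10788905 (Tnp2), all on the minus strand. Capitals mark matches, on either strand, to 4 motifs named after the sequences.
Ddx4: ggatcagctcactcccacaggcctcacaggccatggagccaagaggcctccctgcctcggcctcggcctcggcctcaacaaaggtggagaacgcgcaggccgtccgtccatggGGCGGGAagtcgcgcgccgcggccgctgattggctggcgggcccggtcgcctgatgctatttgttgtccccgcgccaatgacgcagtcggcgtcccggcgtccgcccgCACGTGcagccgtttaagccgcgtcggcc
Prm1: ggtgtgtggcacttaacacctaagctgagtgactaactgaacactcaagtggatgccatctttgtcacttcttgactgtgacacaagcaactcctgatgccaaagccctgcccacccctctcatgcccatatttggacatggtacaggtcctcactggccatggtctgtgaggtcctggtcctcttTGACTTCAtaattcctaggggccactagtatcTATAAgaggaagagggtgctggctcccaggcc
Prm2: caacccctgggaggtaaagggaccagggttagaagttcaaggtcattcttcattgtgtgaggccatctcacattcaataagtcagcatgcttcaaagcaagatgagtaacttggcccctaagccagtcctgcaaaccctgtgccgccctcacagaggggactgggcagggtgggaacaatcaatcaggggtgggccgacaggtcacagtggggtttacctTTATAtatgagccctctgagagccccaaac
Tnp2: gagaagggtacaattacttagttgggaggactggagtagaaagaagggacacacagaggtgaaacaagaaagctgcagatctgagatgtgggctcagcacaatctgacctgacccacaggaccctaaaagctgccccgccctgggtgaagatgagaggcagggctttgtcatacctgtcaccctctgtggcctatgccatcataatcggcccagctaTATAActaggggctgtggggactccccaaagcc
The motifs were chosen for their background. E2F factors bind GGCGGGA. MGA-MAX complexes bind CACGTG. The spermatid activator CREM binds sites such as TGANGTCA, and the TATAA box positions the start of transcription. Among 32851 windows of this length, GGCGGGA is found in 9.75%, CACGTG in 6.02%, TGANGTCA in 7.49% and TATAA in 22.8%. In the Ddx4 window GGCGGGA begins 137 bases and CACGTG 29 bases before the start. In the Prm1 window a stretch that matches TGANGTCA on the opposite strand begins 64 bases before the start, and TATAA begins 32 bases before it. TATAA lies 30 bases before the start in Prm2, where it reads on the opposite strand, and 33 bases before it in Tnp2. CpG dinucleotides divide the genes by stage, with 31 in Ddx4, 20 in Dazl, 17 in Sycp1 and 12 in Sycp3, against 0 in Prm1 and 2 each in Prm2, Tnp1 and Tnp2 (median of all windows 6). These matches describe the sequence only.

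Loss of Aire under DMSO was first compared. Ddx4 and Prm1 were lower in KO than in WT, and the other 6 genes were not called. Thus 2 of 8 fell and 0 rose, where 12.0% of all genes were called lower and 7.40% higher. The split of called genes depends on scaling, since 38.2% of them were higher here, 48.4% after quantile normalization and 56.4% after centring each array on its median. The median change of the 8 genes was -0.02, and that of all genes was -0.01. With quantile normalization the medians were 0.02 and 0.04, and with median centring 0.07 and 0.08.

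A mean over 13 macrophage and dendritic cell markers (of 13) moved with this comparison, from 8.10 to 8.29 in WT DMSO to 7.77 to 7.97 in KO DMSO. Of these markers Adgre1, Itgam, Xcr1 and Mertk were called lower and Cd68 higher, and their part in the values of the 8 genes was not tested.

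Ddx4 measured 5.72, 5.83 and 6.07 on the WT DMSO arrays and 5.28, 5.13 and 5.39 on the KO DMSO arrays. Every KO array lay below every WT array, a separation that 31.9% of all genes show in this comparison. The change was -0.60 ± 0.13 (SE, n = 3 and 3; 95% interval -0.88 to -0.32), or 1.52-fold lower, with a limma adjusted p of 0.00237. Without WT DMSO 1 and KO DMSO 1, the arrays high in thymocyte markers, it was -0.69 (limma adjusted p = 0.0069). Without the male-labelled WT DMSO 1 alone it was -0.68 (limma adjusted p = 0.00232). With age as a covariate it was -0.57 (limma adjusted p = 0.00751).

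Dazl, the other early germ cell factor, read 6.01, 5.83 and 5.63 in WT DMSO and 5.60, 5.67 and 5.52 in KO DMSO, so that the groups overlapped. Its change of -0.23 ± 0.12 (interval -0.49 to 0.03) was not called (limma adjusted p = 0.233).

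The synaptonemal complex genes gave nearly equal means in both genotypes. Sycp1, which forms the transverse filaments, averaged 4.50 in WT DMSO and 4.48 in KO DMSO (change -0.02, interval -0.24 to 0.20). Sycp3, of the lateral elements, averaged 4.21 and 4.18 (change -0.02, interval -0.36 to 0.32). Their limma adjusted p-values were 0.937 and 0.951, and both genes' arrays overlapped. Both genes are among the dimmest 25% and have no detection call, so whether they were expressed at all is not known.

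Of the protamines, Prm1 was called and Prm2 was not. Prm1 measured 7.77, 8.10 and 7.96 in WT DMSO and 7.30, 7.45 and 7.59 in KO DMSO. All KO arrays were again below all WT arrays. The change was -0.50 ± 0.12 (SE, n = 3 and 3; interval -0.75 to -0.24), or 1.41-fold lower, with a limma adjusted p of 0.00565. It was -0.51 (limma adjusted p = 0.016) without WT DMSO 1 and KO DMSO 1, -0.59 (limma adjusted p = 0.00305) without WT DMSO 1 alone and -0.52 (limma adjusted p = 0.00753) with age as a covariate. Prm2 measured 7.86, 8.06 and 7.95 in WT DMSO and 7.74, 8.21 and 8.05 in KO DMSO, and its groups overlapped. Its change was 0.04 (interval -0.27 to 0.35; limma adjusted p = 0.908), so a fall as large as the Prm1 estimate lay outside the interval. The difference between the changes of both protamines was not tested.

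The transition protein genes were not called under DMSO. Tnp1 measured 5.60, 6.15 and 5.85 in WT DMSO and 5.98, 5.91 and 6.01 in KO DMSO (change 0.10, interval -0.29 to 0.49; limma adjusted p = 0.804). Tnp2 measured 7.51, 7.57 and 7.71 in WT DMSO and 7.64, 8.17 and 7.93 in KO DMSO, with 1 KO array inside the WT range. Its change was 0.32 ± 0.14 (interval 0.03 to 0.61; limma adjusted p = 0.125). The Tnp2 change was called after quantile normalization (0.43, limma adjusted p = 0.0337), after median centring (0.41, limma adjusted p = 0.0365) and without KO DMSO 1 (0.45, limma adjusted p = 0.0348).

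**Figure D1:**
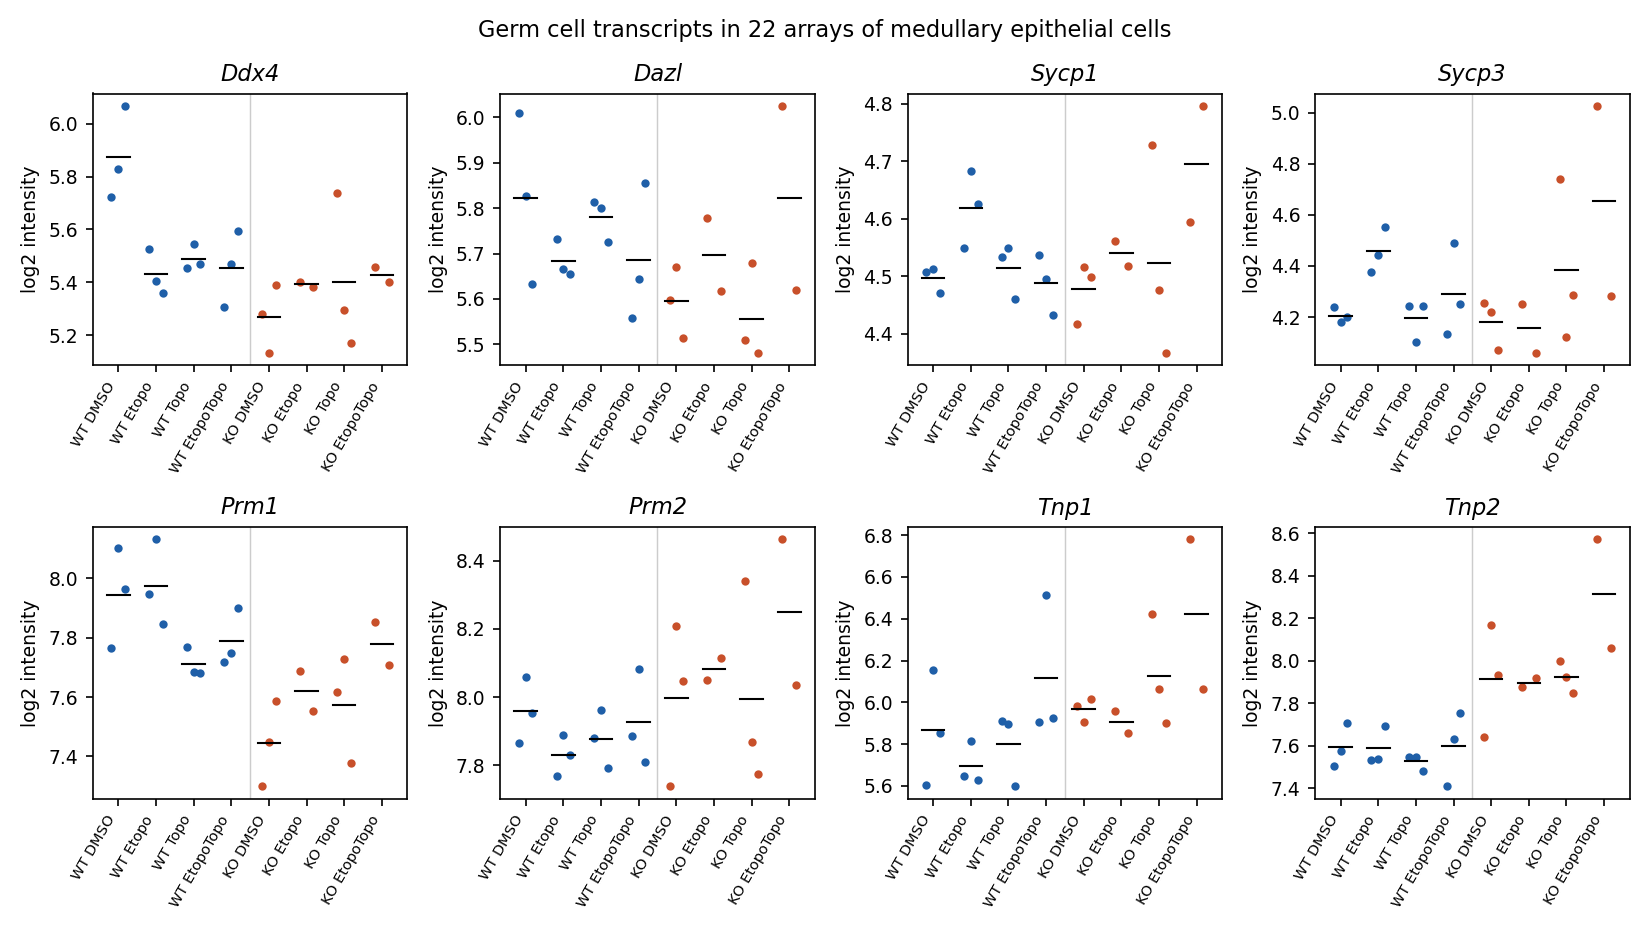
Log2 intensity of each germ cell gene (vertical axes, own scale for each gene) on the 22 arrays, grouped by genotype and treatment, with WT in blue, KO in orange and horizontal bars at group means. For Ddx4 the 3 WT DMSO arrays lie between 5.72 and 6.07, with 18 of the 19 other arrays below them, and 9 of 10 KO arrays of Tnp2 lie above the highest WT array. The share of all genes with such counts was not measured.

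Under the agents the genotype difference of Ddx4 was estimated between -0.09 and -0.03. KO Etopo read 5.40 and 5.38 against 5.53, 5.40 and 5.36 in WT Etopo. KO Topo read 5.74, 5.30 and 5.17 against 5.45, 5.55 and 5.47 in WT Topo. KO EtopoTopo read 5.46 and 5.40 against 5.31, 5.47 and 5.59 in WT EtopoTopo. The groups overlapped under each treatment, and KO Topo 1 was higher than every WT array outside the DMSO group. The KO minus WT changes of Ddx4 were -0.04 (interval -0.35 to 0.27), -0.09 (-0.37 to 0.19) and -0.03 (-0.34 to 0.28), none of them called. Without KO Topo 1 the Topo change was -0.26 and was not called either. The 10th to 90th percentile width of KO Topo 1 was 4.42, against 4.88 and 4.99 on KO Topo 2 and 3.

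Prm1 was not called under the agents. WT Etopo read 7.95, 8.13 and 7.85 and KO Etopo 7.69 and 7.55, with no overlap. The change was -0.35 ± 0.14 (interval -0.64 to -0.07; limma adjusted p = 0.107). Under Topo the Prm1 change was -0.14 (interval -0.39 to 0.12) and under EtopoTopo -0.01 (interval -0.29 to 0.28), and the groups overlapped in both.

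Under Etopo 0 of the 8 genes were called (12.6% of all genes were; at an unadjusted p under 0.05, which 22.5% of all genes had, Prm1 was the 1 gene), and 5 of 8 did not overlap, where 53.2% of all genes did not. Under Topo 0 of 8 were called (15.0% of all genes) and Dazl and Tnp2 did not overlap (35.0% of all genes). Tnp2 was the 1 gene with an unadjusted p under 0.05 there (26.6% of all genes). Under EtopoTopo 1 of 8 was called, and it was higher (10.4% of all genes were called in either direction), and Sycp1 and Tnp2 did not overlap (29.5% of all genes).

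Tnp2 was that gene. It measured 8.57 and 8.06 in KO EtopoTopo and 7.41, 7.63 and 7.75 in WT EtopoTopo. Both KO arrays exceeded all WT arrays, and the change was 0.72 ± 0.16 (SE, n = 2 and 3; interval 0.39 to 1.04), or 1.64-fold higher, with a limma adjusted p of 0.00384. Without KO EtopoTopo 1 it was 0.46 (limma adjusted p = 0.134), and without WT EtopoTopo 1 and 2, whose labels conflict, it was 0.56 (limma adjusted p = 0.191). The means of tuft cell markers (10.20 to 10.36 in WT and 9.17 to 10.02 in KO) and B cell markers (8.11 to 8.28 and 8.37 to 8.47) also did not overlap between these groups. Thymocyte means (6.93 to 7.16 and 7.16 to 7.46) met at 7.16. Of the B cell markers only Blk (0.82) and Cr2 (0.74) were called. The rest were not called, with Cd79a (-0.17), Cd22 (-0.02) and Fcer2a (-0.23) below 0. The part of these marker lists in the Tnp2 value was not tested.

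The same direction was measured for Tnp2 in the other treatments. KO Etopo read 7.88 and 7.92 against 7.53, 7.54 and 7.69 in WT Etopo (change 0.31 ± 0.16, limma adjusted p = 0.249). KO Topo read 8.0, 7.92 and 7.85 against 7.55, 7.55 and 7.48 in WT Topo (change 0.40 ± 0.14, limma adjusted p = 0.0599). Over all treatments 9 of 10 KO arrays exceeded the highest of the 12 WT arrays (7.75), a count made after its values were seen and not tested. The share of all genes with such a count was not measured. Within single treatments, 29.5 to 53.2% of all genes did not overlap between genotypes. The Topo difference was called after quantile normalization (0.52, limma adjusted p = 0.0127) and after median centring (0.50, limma adjusted p = 0.016).

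**Figure D2:**
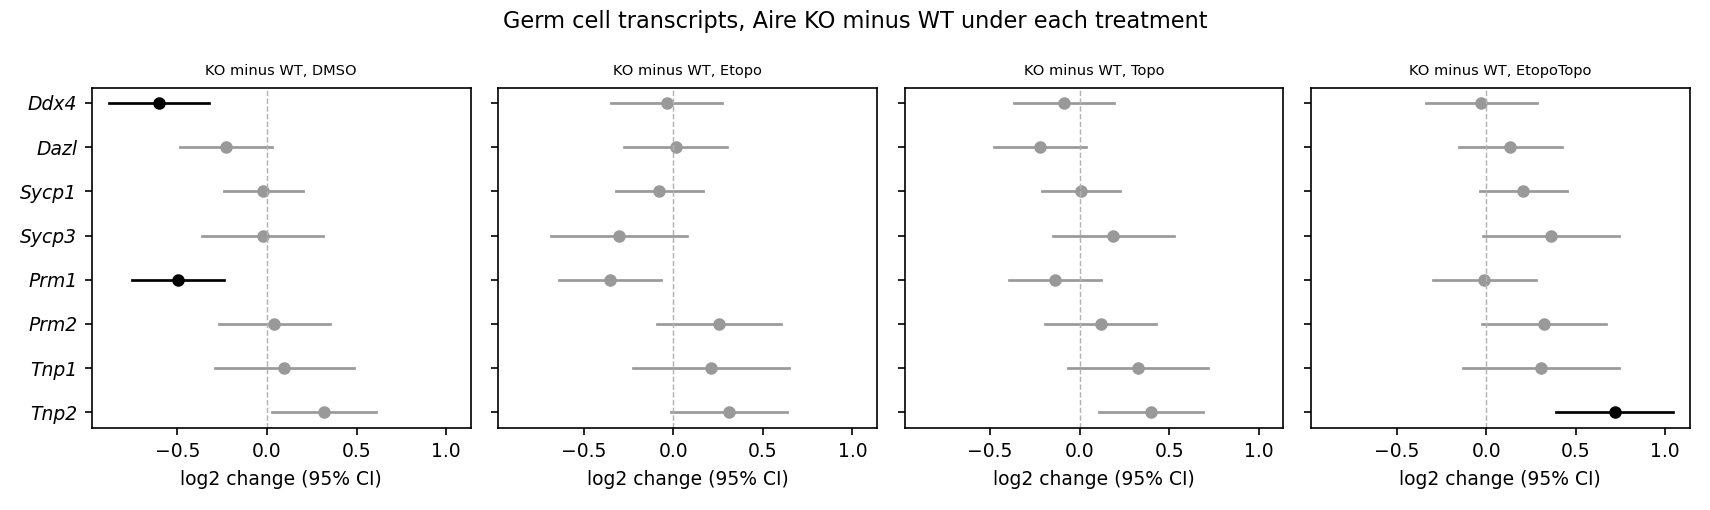
Log2 change of each gene, KO minus WT, under each of the 4 treatments, with 95% intervals from the limma fit; black marks an adjusted p under 0.05 and grey the rest. Ddx4 and Prm1 are called lower under DMSO, and Tnp2 is called higher under EtopoTopo.

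Prm1, Prm2 and Tnp2 lie in 1 cluster, in the RefSeq gene order Clec16a, Socs1, Tnp2, Prm3, Prm2, Prm1, Rmi2 and Litaf. Prm3, a further protamine-like gene between Tnp2 and Prm2, averaged 7.74 in WT DMSO and 7.79 in KO DMSO (change 0.05 ± 0.12, limma adjusted p = 0.858). Thus, under DMSO, the fall of Prm1 was accompanied by changes of 0.05 for Prm3, 0.04 for Prm2 and 0.32 for Tnp2 in the same cluster. Beyond it, Rmi2 (-0.12) and Litaf (-0.13) were not called, and Clec16a (0.49, limma adjusted p = 0.011) rose. Prm3 was higher in KO than in WT under Etopo (0.34), Topo (0.17) and EtopoTopo (0.37), none called. Its groups overlapped under Topo alone. In these comparisons 53.2%, 35.0% and 29.5% of all genes did not overlap. In KO, Prm3 was called higher under EtopoTopo than under DMSO (0.44, limma adjusted p = 0.0311), where 22.8% of all genes were called. That comparison sets 4-week against 6-week mice.

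**Figure D3:**
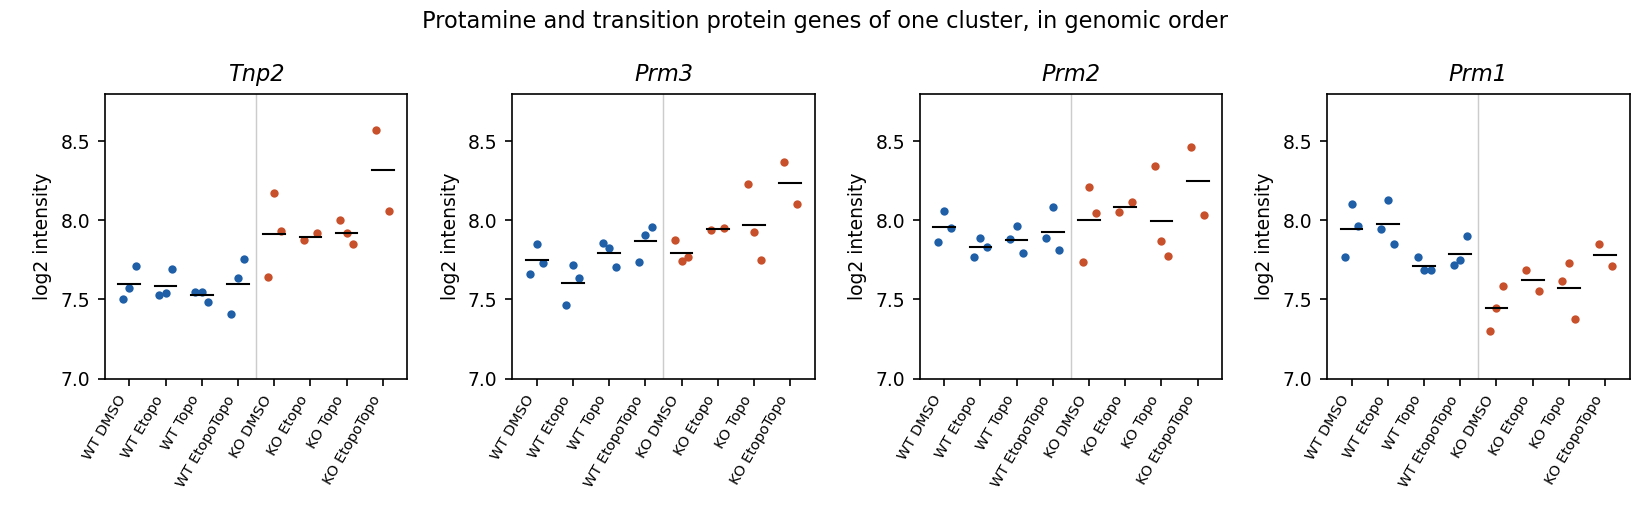
Log2 intensity of the 4 clustered genes on each array, in genomic order, with WT in blue, KO in orange and bars at group means; levels of different probes are not comparable. Under DMSO the KO mean is lower for Prm1 (7.44 against 7.94) and not for Prm2 (8.0 against 7.96).

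Around Ddx4, 3 of the 4 nearest measured genes fell in KO under DMSO. The cytokine receptor genes Il6st and Il31ra changed by -0.62 ± 0.21 (limma adjusted p = 0.0431) and -0.52 ± 0.15 (limma adjusted p = 0.0139), and the lipid phosphatase gene Plpp1 by -0.46 ± 0.15 (limma adjusted p = 0.041). Slc38a9 changed by -0.03 and was not called. Igfbp2 and Igfbp5, which encode binding proteins of insulin-like growth factors and lie beside Tnp1, fell by 0.85 and 1.00 on the log2 scale (limma adjusted p = 0.000154 and 0.00578), while Tnp1 did not pass. Beside Dazl, Rftn1 and Tbc1d5 rose by 0.59 and 0.54 (limma adjusted p = 0.0158 for each). Of all 25 neighbours, 5 were called lower and 3 higher, where 12.0% and 7.40% of all genes were.

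The agents were next compared with DMSO within WT, where the question is whether topoisomerase inhibition moves these antigens. The Ddx4 mean was lower under each treatment, though the change was called only for EtopoTopo. The WT Etopo mean was 5.43, that of WT Topo 5.49 and that of WT EtopoTopo 5.46, against 5.87 in WT DMSO. No array of the 3 treated groups reached the lowest WT DMSO array (5.72), a separation shown by 11.6%, 20.0% and 30.5% of all genes in these comparisons. The comparisons share their 3 DMSO arrays and are not independent. Over the whole series, 18 of the 19 arrays other than WT DMSO were below 5.72. This count was not tested, and the share of all genes with such a count was not measured.

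The Ddx4 changes were -0.44 ± 0.13 under Etopo (limma adjusted p = 0.448), -0.38 ± 0.13 under Topo (0.181) and -0.42 ± 0.13 under EtopoTopo (0.0488). Only the last was called, where 10.9% of all genes were called in either direction, and this call was lost in 14 of 16 alternatives (limma adjusted p 0.0038 to 0.51). It was lost without each of the 6 arrays in turn and with age as a covariate (-0.48, limma adjusted p = 0.159). With the replicate block it was also lost (limma adjusted p = 0.0634). Along with Ddx4, the mean of 12 tuft cell markers (of 12) moved from 9.13 to 9.35 in WT DMSO to 10.20 to 10.36 in WT EtopoTopo, and that of 19 mitosis genes (of 20) from 8.56 to 8.68 to 7.63 to 7.94. Means of the MEC (11.36 to 11.49, then 11.12 to 11.35), cortical epithelial (9.76 to 9.79, then 9.43 to 9.57), thymocyte (7.34 to 8.14, then 6.93 to 7.16) and macrophage and dendritic cell markers (8.10 to 8.29, then 7.87 to 7.97) were lower in WT EtopoTopo without overlap. Their part in the Ddx4 value was not tested.

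The other 7 genes were not called under any agent in WT. For Etopo the background of calls was 0.00506% and for Topo 2.21% of all genes, with 0 of 8 called in either; at an unadjusted p under 0.05, which 5.55% and 11.5% of all genes had, Ddx4 was the 1 gene in each. Prm1 read 7.77, 7.68 and 7.68 in WT Topo, overlapping WT DMSO at its lowest array, and its change was -0.23 (interval -0.49 to 0.02). Under Etopo and EtopoTopo it changed by 0.03 and -0.15. Sycp1 (4.55, 4.68 and 4.63) and Sycp3 (4.38, 4.44 and 4.55) were above their WT DMSO arrays in WT Etopo. Those changes, 0.12 and 0.25, were not called (limma adjusted p = 0.999 for each). The changes of Dazl, Prm2, Tnp1 and Tnp2 ran from -0.17 to 0.25.

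In KO mice 0 of 8 genes were called under Etopo, Topo or EtopoTopo, where 0, 1.03 and 22.8% of all genes were. At an unadjusted p under 0.05 there were 0, 0 and 4 genes, where 3.58, 11.6 and 41.4% of all genes were. Ddx4 changed by 0.12 (interval -0.19 to 0.43), 0.13 (-0.15 to 0.41) and 0.16 (-0.15 to 0.47). The changes estimated in WT ran from -0.44 to -0.38, each with an SE of 0.13. The genotype difference of the Ddx4 response was 0.57, 0.52 and 0.58 for the 3 treatments and was not called (limma adjusted p = 0.95, 0.646 and 0.162). All 3 contain the same genotype difference under DMSO (-0.60) with its sign turned, so they are not independent. The EtopoTopo response in KO also compares 4-week with 6-week mice. No such difference was called for any of the 8 genes, where 0, 0.0759 and 2.46% of all genes were; at an unadjusted p under 0.05, which 4.59, 4.74 and 14.7% of all genes had, they were Ddx4 in each and Prm1 also in the last.

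Under EtopoTopo all 8 changes in KO were above 0, from 0.16 to 0.47 with a median of 0.29 (all genes 0.06), except after quantile normalization, which put Ddx4 at -0.24, Dazl at -0.15 and Sycp1 at -0.11. By label the KO DMSO mice were 6 weeks old and the KO EtopoTopo mice 4 weeks. Agents and age therefore cannot be told apart in this comparison. The smallest limma adjusted p was 0.0627, for Sycp3. Sycp3 read 5.03 on KO EtopoTopo 1 and 4.28 on KO EtopoTopo 2, against 4.26, 4.22 and 4.07 in KO DMSO. Tnp1 read 6.78 and 6.06, and Prm2 8.46 and 8.04, so the first array was the high one for these genes. The 4 genes with an unadjusted p under 0.05, a share near that of all genes (41.4%), were Sycp3, Prm1, Tnp1 and Tnp2.

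KO EtopoTopo 1 also stood apart over the whole array. Its 10th to 90th percentile width was 3.89, against 4.32 to 5.01 on the other arrays, and the mean of 1194 olfactory and vomeronasal receptor genes was 5.99 there and 5.11 to 5.71 elsewhere. These receptors are silent in most tissues. Their median change under EtopoTopo was 0.49 in KO with this array and 0.22 without it, and 0.31 in WT. Without KO EtopoTopo 1 the median over the 8 genes was 0.12, and without KO EtopoTopo 2, 4 genes were called, where 46.4% of all genes were.

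**Figure D4:**
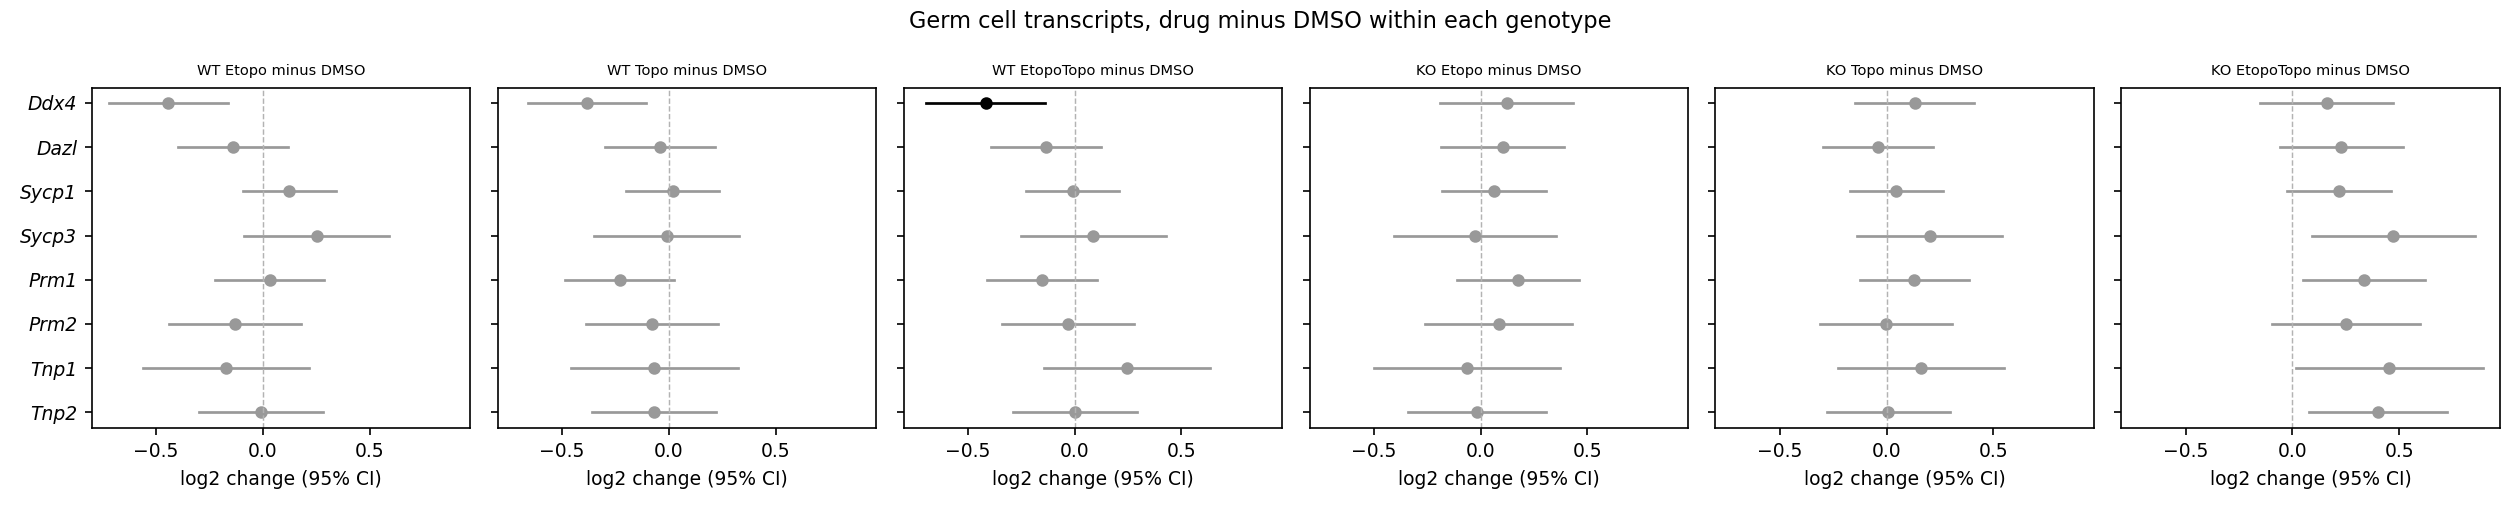
Log2 change of each gene, agent minus DMSO, in WT (first 3 panels) and KO (last 3), with 95% intervals from the limma fit; black marks an adjusted p under 0.05. In WT, Ddx4 lies between -0.44 and -0.38 in all 3 panels, and in KO EtopoTopo all 8 points lie above 0, which after quantile normalization did not hold for Ddx4, Dazl and Sycp1.

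Correlations across the 22 arrays are given as a description, since arrays share groups and array-wide shifts. Ddx4 and Prm1 correlated at r = 0.58, and at 0.39 after group means were removed. For Prm1 and Prm2 these values were -0.01 and 0.40, and for Prm1 and Tnp2 -0.25 and 0.39. Within groups Prm1 therefore correlated with all 3 genes to about the same degree. Prm2 correlated with Tnp1 at 0.76 (0.74 within groups) and with Tnp2 at 0.75 (0.67 within groups), or at 0.62 and 0.59 over all arrays without KO EtopoTopo 1. Tnp1 correlated with the mean of the receptor genes at r = 0.84 (0.73 without KO EtopoTopo 1), Sycp3 at 0.65 (0.38), Prm2 at 0.60 (0.37) and Tnp2 at 0.46 (0.09). The other 4 genes had r between 0.20 and 0.26.

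The genes most like Ddx4 over the 22 arrays were Ces4a (r = 0.86), Tmco5b (0.85) and Cacng3 (0.83). Those most like Prm1 were Glp2r (0.90), Ccdc187 (0.90) and Nell1 (0.88).

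Other germline genes give the setting for these values, each compared in KO minus WT under DMSO against the same 12.0% lower and 7.40% higher of all genes. Of 23 measured germline RNA and piRNA factors, the closest to Ddx4 in function, 3 fell and 0 rose, with a median of -0.18. Asz1, a piRNA pathway protein of germ granules, fell from 6.85, 6.36 and 6.21 to 5.36, 5.31 and 5.43 (-1.10 ± 0.19, limma adjusted p = 0.000153). Piwil2 and Tdrd12, also of the piRNA pathway, fell by 0.50 and 0.49 on the log2 scale.

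Of 32 genes of synapsis, cohesion and recombination, the setting of Sycp1 and Sycp3, 3 fell and 4 rose. The meiotic cyclin gene Ccna1 changed by -0.81 and the recombination gene Spata22 by -0.74, while Mei4, needed for meiotic DNA breaks, changed by 0.58. Of 38 spermatid and sperm genes, which accompany the protamines and transition proteins, 7 fell and 1 rose. The mitochondrial sperm gene Spata19 (-1.66 ± 0.25, limma adjusted p = 4.2e-05) and the acrosomal genes Spaca7 (-1.14) and Acrv1 (-1.01) had the lowest changes.

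Of 20 oocyte genes, 10 fell and 1 rose, with a median of -0.41. Zp3, an egg coat glycoprotein, read 8.63, 8.55 and 9.02 in WT DMSO and 6.52, 6.28 and 6.51 in KO DMSO, a 4.91-fold fall (-2.30 ± 0.20, limma adjusted p = 1.88e-08). Oas1d (-1.80) and Zp1 (-1.51 ± 0.12) followed. Of 15 spermatogonial genes 0 fell and 3 rose, Zbtb16 (0.79), Gfra1 (0.64) and Ret (0.58). Of 7 genes in a list of testis and oocyte histones, the oocyte linker histone H1f8 rose (0.75). That list also holds Macroh2a2, a variant not limited to germ cells. These lists overlap in no member with the 8 genes.

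**Figure D5:**
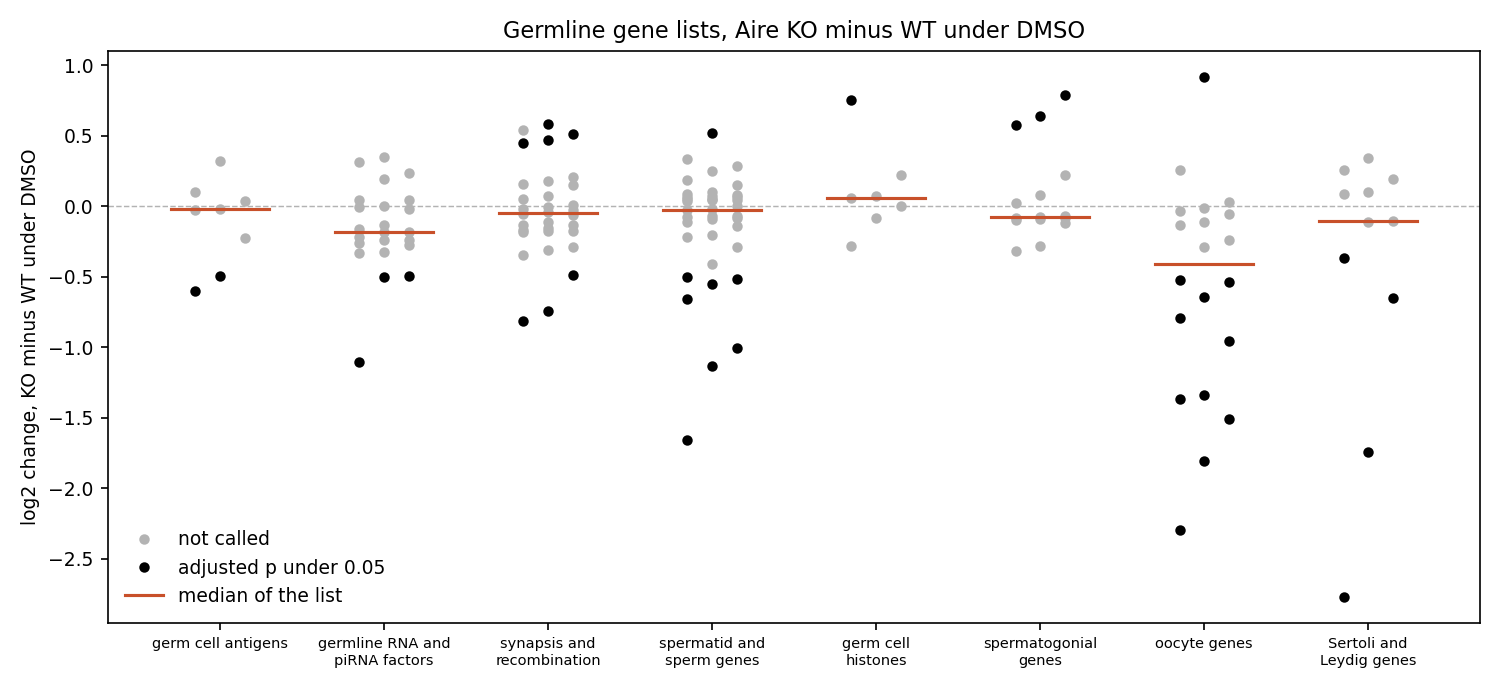
Log2 change, KO minus WT under DMSO, of every measured gene of the 8 germ cell genes and 7 further lists (horizontal axis), with black for an adjusted p under 0.05, grey for the rest and orange bars at list medians. The 8 genes centre on -0.02 and the oocyte genes on -0.41, and the lowest oocyte gene is Zp3 at -2.30.

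Genes that repress the germline programme in other cells were also measured, 24 in all, of which 6 rose and 2 fell in KO under DMSO. Among all genes, 7.40% were called higher and 12.0% lower in this comparison. The DNA methylation cofactor Dnmt3l rose from 8.83, 8.68 and 8.68 to 10.44, 10.63 and 10.62 (1.84 ± 0.18, limma adjusted p = 1.8e-07). Cbx3, Yaf2, Ezh2, Tfdp1 and Rybp also rose, with overlapping arrays for Rybp alone, and Hdac1 (-0.63) and Zfp57 (-0.48) fell. Whether these levels bear on the 8 genes was not tested.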

How the data were processed

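The deposited values of 22 arrays are linear probe intensities, made with RMA and Affymetrix Power Tools, per the submitters' processing notes (versions not given in the sources used here). Per the labels, RNA was extracted with Trizol, amplified with the Ambion WT Expression Kit and hybridised to Affymetrix ST1.0 arrays. Log2 was taken with no pseudocount and no further normalization. Of 24922 probes, 21425 had 1 gene symbol, 1399 several and 2098 none. The probe with the highest mean was kept per symbol, leaving 19752 genes. R 4.3.3 and limma 3.58.1 (lmFit, 1 mean per group, eBayes; 14 residual and 7.22 prior degrees of freedom) gave 13 contrasts, each adjusted by Benjamini-Hochberg over all genes, and were tested on simulated data. The number of arrays limits the precision. The genes and lists, including Aire, other named list genes, likeness and neighbours (2 measured genes each side), were chosen with earlier results of these data known. Named list genes were the called, non-overlapping ones of largest change, 3 per list for KO minus WT and 2 for each agent. Alternatives were quantile normalization, median centring, other probe rules, a filter on dim genes, age, a replicate block, trend and robust eBayes, only the groups compared, and arrays left out. Age differs within a group only in WT DMSO and WT Etopo, so the age covariate rests on those arrays. Same-numbered arrays were correlated over all genes after group means were removed. These correlations were above 0.1 in every pair only for WT Etopo minus DMSO (0.34, 0.36 and 0.59) and KO Topo minus DMSO (0.41, 0.17 and 0.30).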

Additional observations from a re-analysis of the deposited data

Results flagged for a closer look

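An interaction test compared the response to EtopoTopo between genotypes (KO response minus WT response, limma, adjusted over all genes). It called 3 oocyte genes and 2 steroidogenic genes. Only the 8 genes and the named list genes were searched. The latter were chosen for large changes between genotypes under DMSO or under an agent. Those changes enter the interaction, so the choice favours such calls. The 2.46% of all genes called is therefore not a like background. The difference was 1.41 for Zp3 (limma adjusted p = 0.011), 0.96 for Zp1 (0.00493) and 1.13 for Oosp1 (0.0163). It was 1.02 for Cyp11a1 (0.0119) and 0.86 for Star (0.0432), which act in steroid synthesis. Zp3 averaged 8.73 in WT DMSO and 7.84 in WT EtopoTopo, and 6.44 in KO DMSO and 6.96 in KO EtopoTopo. Without KO EtopoTopo 1 none of these 5 differences was called, at 1.15 for Zp3 (limma adjusted p = 0.159), 0.86 for Zp1 (0.0547), 1.04 for Oosp1 (0.139), 0.76 for Cyp11a1 (0.184) and 0.92 for Star (0.152). Without WT EtopoTopo 1 and 2 none was called either, with limma adjusted p from 0.127 to 0.352. Star was also lost without 8 other single arrays and Oosp1 without WT DMSO 2. In KO the response also compares 4-week with 6-week mice, so age cannot be told apart from the agents.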

How the results depend on the processing

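The falls of Ddx4 and Prm1 in KO under DMSO kept direction and call in all 15 and 16 alternatives, from -0.69 to -0.43 (limma adjusted p 0.0023 to 0.022) and from -0.59 to -0.36 (0.003 to 0.041); leaving out the dimmest 25% of genes removed Ddx4 and left 1 call of 2. Leave-one-out counts of the 8 genes called were 0 to 4 for KO EtopoTopo minus DMSO, 0 to 4 for KO minus WT under EtopoTopo, 0 to 3 for the EtopoTopo interaction and 0 throughout for WT EtopoTopo minus DMSO. Against 0 calls, quantile normalization gave 1 for KO EtopoTopo minus DMSO and 2 for KO minus WT under Topo, where the dim-gene filter, trend and robust eBayes, median centring and only the groups compared gave 1. The Tnp2 call under EtopoTopo went to 0 with only the groups compared and without WT EtopoTopo 1 and 2. The WT EtopoTopo call of Ddx4 was lost with age, all probes, trend and robust eBayes, median centring, only the groups compared and the replicate block. It was also lost without WT DMSO 1 and KO DMSO 1. The dim-gene filter removed Ddx4, which was then not tested. Without WT EtopoTopo 1 and 2, which leaves 1 array in that group, its change was -0.28. The replicate block changed no other count of the 8 genes called. Of the 104 changes of the 8 genes (8 in each of 13 contrasts), 41 turned sign in some alternative, 0 of them called as reported or where turned, and the causes were not tested. Counts of all genes called ranged from 1179 to 4142 (2482 as reported) for KO minus WT under Etopo, 608 to 4952 (2063) under EtopoTopo, 103 to 589 (436) for WT Topo, 251 to 2922 (2149) for WT EtopoTopo, 0 to 9170 (4513) for KO EtopoTopo, 0 to 249 (204) for KO Topo and 92 to 4178 (486) for the EtopoTopo interaction.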

Other observations

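Genes of the somatic partners of testis germ cells were measured beside the germ cell genes. Of 11 Sertoli and Leydig cell genes, 4 fell and 0 rose in KO minus WT under DMSO, where 12.0% of all genes fell and 7.40% rose. Hsd3b6, a steroid dehydrogenase, changed by -2.77 (limma adjusted p = 3.13e-07) and Cyp11a1, which starts steroid synthesis from cholesterol, by -1.74 (1.04e-08). Cyp11a1 read 8.42, 8.06 and 8.14 in WT DMSO and 6.49, 6.43 and 6.48 in KO DMSO. Its lack of overlap was a condition for being named.

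In WT EtopoTopo minus DMSO, 5 of 20 oocyte genes fell and 0 rose, among them Oas1d (-1.18) and Oosp1 (-0.93), where 10.9% of all genes were called in either direction. The oocyte count was 2 with age as a covariate and 0 without WT EtopoTopo 1 and 2. Of 38 spermatid and sperm genes, 2 fell and 1 rose, and Spata19 read 8.02, 7.82 and 7.67 in WT DMSO and 5.94, 5.92 and 6.73 in WT EtopoTopo. Of the 24 repressors, 5 fell and 0 rose, with Hdac2 at -0.92 and Dnmt3l at -0.76. In KO EtopoTopo minus DMSO, 6 of 20 oocyte and 7 of 38 spermatid genes were called higher, where 11.1% of all genes were. Without KO EtopoTopo 1 it was 0 of either, where 0.344% of all genes were called in either direction. This KO comparison also sets 4-week against 6-week mice.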
